A study of Homo sapiens with 6 samples.

Results

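The genes described here encode the mitochondrial ribosomal proteins. They were taken from the gene table by symbol, as every gene named MRPL or MRPS followed by digits and at most 1 letter from A to C, and 77 of the 32029 genes listed matched. Of these, 48 carried an MRPL symbol and 29 an MRPS symbol. By structure rather than by symbol, 50 belong to the large subunit and 26 to the small subunit, because MRPS30 and MRPS18A sit in the large subunit. MRPS36, the remaining gene, is a component of the α-ketoglutarate dehydrogenase complex and not of the ribosome. No measured value entered the choice of the genes, although earlier results of these data were known when the set was proposed.

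The cells were SW480, a line from a human colorectal adenocarcinoma. The study compared SW480 cells transfected with a control siRNA (siNC, genotype WT in the labels) with SW480 cells transfected with an siRNA against ZEB1 (siZEB1, genotype ZEB1 knockdown), with 3 libraries in each group. Total RNA was taken 48 h after transfection and sequenced, and reads were counted per gene. ZEB1 is a zinc finger transcription factor that binds E-box sequences and is best known for repressing epithelial genes during epithelial-mesenchymal transition. A single cell line was used and the sequences of the siRNAs are not given in the sources used here, so a difference between the groups is a difference between siRNAs in SW480 cells. The study's methods call the libraries biological replicates.

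Mitochondria keep ribosomes of their own, which translate the few proteins encoded by mitochondrial DNA, all of them subunits of the respiratory chain and ATP synthase. The ribosomal RNAs come from mitochondrial DNA, whereas every protein of the mitochondrial ribosome is encoded in the nucleus, made in the cytosol and imported. Some of these proteins descend from bacterial ribosomal proteins and others were added during the evolution of mitochondria.

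The libraries held 19040636 to 22357633 counts, of which the 77 genes took 0.452% to 0.524%. ZEB1 served as the check of the knockdown. It had 58.6, 57.0 and 47.1 CPM with siNC and 7.20, 6.86 and 8.46 CPM with siZEB1, where CPM are counts scaled to a library of fixed size with TMM factors. The difference was -2.85 on the log2 scale (SE 0.11, adjusted p = 4.85e-12, edgeR's quasi-likelihood test). Every siZEB1 library lay below every siNC library. Of 12 colorectal epithelial markers, 7 were tested, 3 were called higher (EPCAM, KRT19 and VIL1) and CDX2 was called lower, while CDH17 had 0 to 5 counts per library. Their summed level was 4815 to 5438 CPM with siNC and 5330 to 6003 CPM with siZEB1, and their part in the differences below was not tested. Markers of blood, endothelial, stromal, liver and glial cells summed to 10.6 to 14.3 CPM over both groups, with CD68 at 0 counts in 5 of 6 libraries. COL1A1 was the highest of them, at 10.2 ± 0.572 CPM with siNC and 8.70 ± 1.11 CPM with siZEB1 (SD, n = 3), and was not called.

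Most mitochondrial ribosomal protein genes differed little between siNC and siZEB1, and a small number fell strongly. Of the 77 genes, 75 passed the filter on low counts, 5 were called higher, 18 were called lower and 52 were not called at an adjusted p under 0.05. Over all 14996 genes tested, 19.0% were called higher and 21.2% lower, against 6.67% and 24.0% of the tested members, so that a smaller share of members than of all genes rose and a similar share fell. With a fold change over 1.5 required as well, 7 of the 75 members (9.33%) were lower, against 8.57% of all genes, and 0 were higher, against 6.36% of all genes. That count of 0 follows from the fold changes alone, since the largest rise of a member was 0.35 on the log2 scale, below the 1.5-fold limit. It was therefore 0 at an unadjusted p under 0.05 in edgeR's quasi-likelihood test as well, and it was also 0 with DESeq2. The median log2 fold change was -0.04 over the members and -0.01 over all genes, and 30 members lay within 0.1 of 0 on the log2 scale. In 24 of the 75 tested members the siZEB1 libraries all lay below the siNC libraries, against 3790 of all 14996 genes (25.3%). In 7 of the 75 they all lay above, against 3637 of all genes (24.3%). In a culture measured in bulk, fewer cells that express a gene and less of its RNA per cell cannot be told apart.

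**Figure D1:**
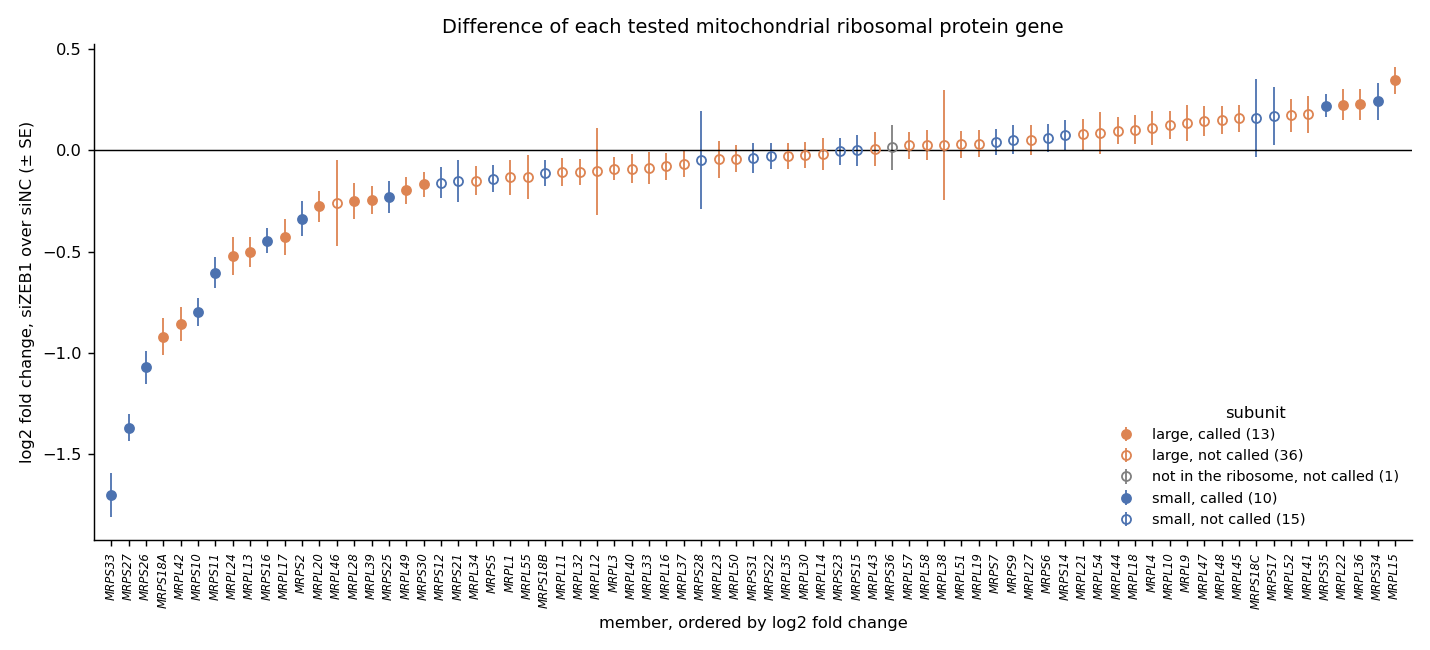
Log2 fold change of siZEB1 over siNC (y axis) with its standard error for each of the 75 tested mitochondrial ribosomal protein genes, ordered along the x axis and coloured by subunit. Filled points passed an adjusted p of 0.05; 18 of them lie below 0, down to -1.70 for MRPS33, and 5 lie above 0, up to 0.35 for MRPL15.

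The small subunit held the largest falls. Of its 25 tested genes, 8 were called lower (32%), 2 were called higher (8%) and 5 were lower by over 1.5-fold (20%). Of the 49 tested large-subunit genes, 10 were called lower (20.4%), 3 were called higher (6.12%) and 2 were lower by over 1.5-fold (4.08%). Over all genes tested these shares were 21.2%, 19.0% and 8.57%. The medians of the log2 fold changes were close to each other, at -0.05 for the small and -0.03 for the large subunit. By origin, 9 of 43 tested genes with a counterpart in the bacterial ribosome were called lower (20.9%) and 3 higher (6.98%). Of 28 without such a counterpart, 8 were called lower (28.6%) and 2 higher (7.14%). No difference between these classes was tested.

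MRPS33 encodes a small-subunit protein with no counterpart in bacteria. Its level was 26.4, 30.9 and 32.4 CPM with siNC and 8.58, 10.5 and 8.46 CPM with siZEB1. MRPS33 was thus 3.26-fold lower in the mean (log2 fold change -1.70, SE 0.11, adjusted p = 2.68e-09, edgeR), and the groups did not overlap. The gene lies at chr7:141002610-141015228 on the minus strand (GRCh38, GENCODE 29).

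MRPS27 encodes a pentatricopeptide repeat protein of the small subunit, a fold that binds RNA. It had 109.1, 108.6 and 102.9 CPM with siNC and 42.4, 40.3 and 41.3 CPM with siZEB1. The libraries within each group lay close together and the groups were far apart. The fall in MRPS27 was 2.58-fold (log2 fold change -1.37, SE 0.07, adjusted p = 8.95e-11, edgeR). MRPS27 lies at chr5:72219409-72320646 on the minus strand and shares 2.92% of its exonic bases with PTCD2 on the other strand.

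MRPS26, also a small-subunit gene without a bacterial counterpart, had 60.8, 64.7 and 68.7 CPM with siNC and 33.1, 31.0 and 28.2 CPM with siZEB1. No siZEB1 library reached any siNC library, and MRPS26 fell 2.10-fold (log2 fold change -1.07, SE 0.08, adjusted p = 1.64e-08, edgeR). It lies at chr20:3045945-3048254 on the plus strand, and no other annotated gene shares its exons.

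MRPS18A is 1 of 3 genes descended from a single bacterial small-subunit protein, and its product sits in the large subunit. MRPS18A had 29.7, 28.2 and 33.6 CPM with siNC and 17.1, 16.1 and 15.1 CPM with siZEB1. Its groups were separate, and it fell 1.89-fold (log2 fold change -0.92, SE 0.09, adjusted p = 5.44e-07, edgeR). Its relatives did not pass the test. MRPS18B stood at 119.2 ± 0.660 CPM with siNC and 110.1 ± 7.51 CPM with siZEB1 (SD, n = 3). MRPS18B differed in the same direction as MRPS18A, by less and with separate groups (log2 fold change -0.11, SE 0.07). MRPS18C, at a low level, stood at 2.88 ± 0.294 and 3.21 ± 0.690 CPM. MRPS18A lies at chr6:43671303-43687791 on the minus strand, and 47.0% of its exonic bases are also exonic in RSPH9 on the other strand. RSPH9, a gene of motile cilia, had 9 to 36 counts per library, against 289 to 648 for MRPS18A, and was itself called lower (log2 fold change -0.998, SE 0.37, adjusted p = 0.0423, edgeR).

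MRPL42 encodes a large-subunit protein without a bacterial counterpart. It had 81.9, 69.7 and 81.0 CPM with siNC and 39.1, 46.3 and 42.8 CPM with siZEB1. All siNC libraries stood above all siZEB1 libraries, and the fall was 1.81-fold (log2 fold change -0.86, SE 0.08, adjusted p = 3.44e-07, edgeR). The gene lies at chr12:93467488-93516213 on the plus strand.

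MRPS10 and MRPS11 both have bacterial counterparts, of which that of MRPS11 lies at the platform of the small subunit. MRPS10 had 71.2, 70.4 and 68.4 CPM with siNC and 41.5, 41.3 and 37.9 CPM with siZEB1 (log2 fold change -0.80, SE 0.07, adjusted p = 1.01e-07, edgeR). MRPS11 had 48.3, 43.1 and 49.6 CPM with siNC and 31.7, 30.5 and 30.4 CPM with siZEB1 (log2 fold change -0.60, SE 0.08, adjusted p = 8.48e-06, edgeR). In both genes the groups were separate, the falls being 1.74-fold for MRPS10 and 1.52-fold for MRPS11, the member nearest the 1.5-fold limit from above. MRPS10 lies at chr6:42206801-42217865 on the minus strand and MRPS11 at chr15:88467453-88480773 on the plus strand.

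**Figure D2:**
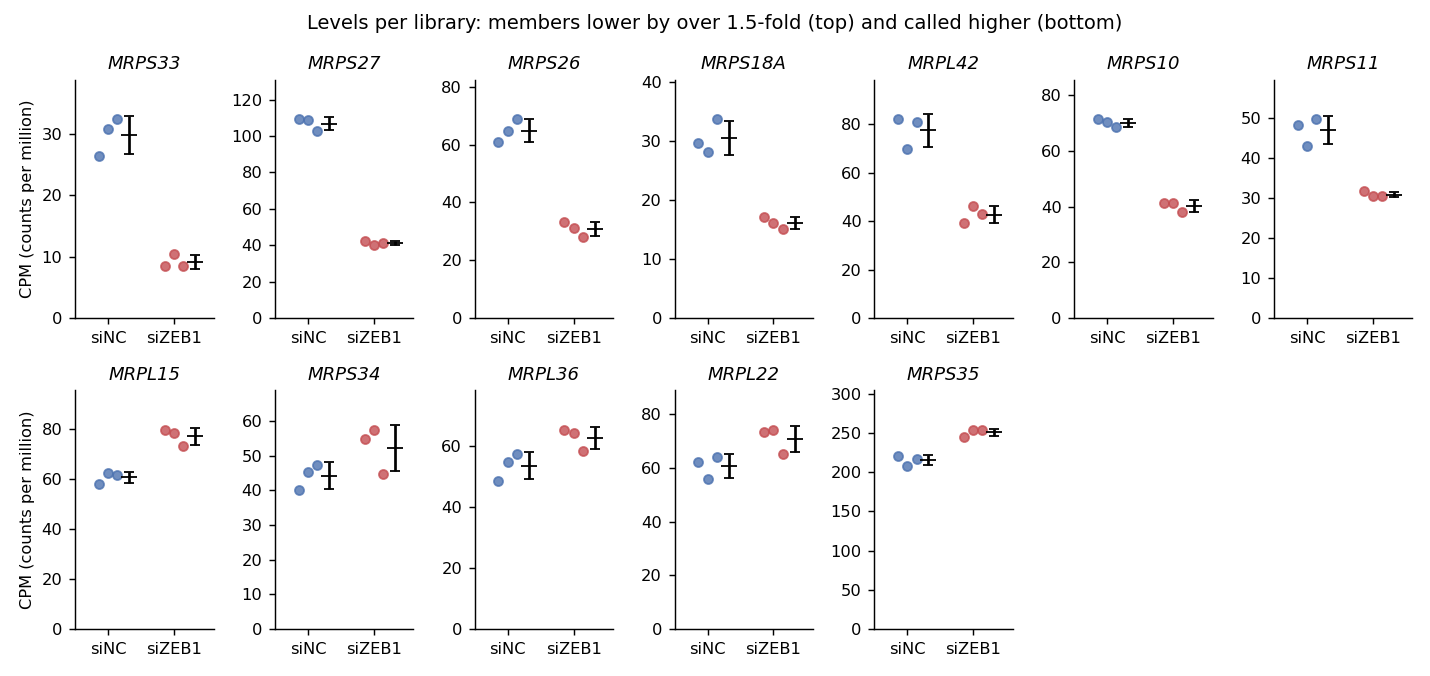
Level in CPM (y axes, from 0) in each of the 3 siNC and 3 siZEB1 libraries for the 7 members lower by over 1.5-fold and the 5 members called higher; points are libraries and black bars give the mean ± SD. The groups are separate in all 7 lower members, and of the 5 higher ones only MRPS34 has an siZEB1 library (44.7 CPM) below siNC libraries.

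The 7 members lower by over 1.5-fold had longer annotated 3′ untranslated regions (3′UTRs), with a median of 1500 bases against 387 bases in the other 68 tested members with one. Over all tested genes the medians were 1213 bases for those lower by over 1.5-fold and 1085 bases for the others. An earlier scan of these data had singled out the 7-mer GAACACA in the 3′UTRs of genes lower with siZEB1. Because the 7-mer came from the same libraries and the same comparison, its counts here describe the members and support nothing. It occurred in the 3′UTR of 7 of 75 members (9.33%) and of 11.2% of 12225 tested genes with a 3′UTR. Among the 7 members lower by over 1.5-fold, 4 held it (MRPS33, MRPS27, MRPS26 and MRPL42), and 3 of the other 68 did (MRPL49, MRPL50 and MRPS17). Over all genes, 28.4% of those lower by over 1.5-fold and 9.49% of the others held it. MRPS18A, MRPS10 and MRPS11 fell without it.

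The 8 sites in the 7 holding members are shown, from the 3 genes with the largest differences down to members that were not called. Each was read from the GENCODE 29 transcript, 5′ to 3′ along the gene's own strand, with the 7-mer in capitals and up to 10 bases on either side (GRCh38 coordinates).
MRPS33, first site, chr7:141006298-141006324, minus strand: ttatttggagGAACACAgtcatctcct
MRPS33, second site, chr7:141006242-141006268, minus strand: ctggtttcttGAACACAttctaactgt
MRPS27, chr5:72219757-72219783, minus strand: cacaacttgtGAACACAcatttctgtt
MRPS26, chr20:3048234-3048254, plus strand: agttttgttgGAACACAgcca
MRPL42, chr12:93502189-93502215, plus strand: gctagctttaGAACACAtgcaaacagc
MRPL49, chr11:65126637-65126663, plus strand: aggtgatggaGAACACAgatgactcgg
MRPL50, chr9:101388730-101388756, minus strand: cacagatgggGAACACAcagtcttggt
MRPS17, chr7:55955889-55955915, plus strand: gagtagctggGAACACAggagcgtacc

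MRPS33, the gene with the lowest log2 fold change, was the only member with 2 copies of the 7-mer, at bases 116 and 172 of a 3′UTR of 3820 bases. The 3′UTR of MRPL42 had 14992 bases and 1 copy. A long 3′UTR has more places for a match, and the counts were not adjusted for length. The copy in MRPS26 began at base 375 of a 3′UTR of 385 bases. The presence of the 7-mer did not go with a large difference in every holder. MRPL49 had 97.8, 105.3 and 99.1 CPM with siNC and 90.4, 89.1 and 83.8 CPM with siZEB1 (log2 fold change -0.20, SE 0.06, adjusted p = 0.0207, edgeR). MRPL50 and MRPS17 were not called, with log2 fold changes of -0.04 (SE 0.07) and 0.17 (SE 0.14). A role of the 7-mer was not tested.

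The other 11 members called lower changed by less than 1.5-fold. Among those with bacterial counterparts, MRPL24, whose counterpart borders the exit of the peptide tunnel, fell by 0.52 (SE 0.09) on the log2 scale. MRPL13 fell by 0.50 (SE 0.07), and MRPS16, in which mutations cause a deficiency of the respiratory chain, fell by 0.45 (SE 0.06). MRPL17 fell by 0.43 (SE 0.09), MRPS2 by 0.34 (SE 0.09), MRPL20 by 0.28 (SE 0.08) and MRPL28 by 0.25 (SE 0.09). Among those without such counterparts, MRPL39 fell by 0.25 (SE 0.07), MRPS25 by 0.23 (SE 0.08), MRPL49 by 0.20 (SE 0.06) and MRPS30 by 0.17 (SE 0.06). Their adjusted p ran from 2.75e-05 for MRPS16 to 0.0344 for MRPL28 in edgeR's quasi-likelihood test. Each of the 18 genes called lower had all siZEB1 libraries below all siNC libraries. MRPL24, the member nearest the 1.5-fold limit from below, had 31.3, 26.7 and 32.8 CPM with siNC and 22.7, 21.1 and 19.3 CPM with siZEB1. MRPS25 shares 22.2% of its exonic bases with NR2C2 on the other strand, which was not called (log2 fold change -0.09, SE 0.08). MRPS16 shares 14.1% with DNAJC9-AS1, also not called. MRPS2 shares 14.4% with AL161452.1 and C9orf116 on the other strand. C9orf116 had 37 to 107 counts per library and was called lower (log2 fold change -0.59, SE 0.22). MRPL49 shares 12.2% with FAU and SYVN1 on the other strand. SYVN1 was called higher (log2 fold change 0.33, SE 0.07) and FAU was not called.

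Leaving out 1 library at a time kept 14 of the 18 lower calls in all 6 fits. MRPL28 lost its call without siNC replicate 2, siNC replicate 3 or siZEB1 replicate 3, its log2 fold change then lying as close to 0 as -0.14. MRPS25 and MRPS30 each lost their call without siNC replicate 1 or 2 or siZEB1 replicate 1 or 2, and MRPL49 without siNC replicate 2 or siZEB1 replicate 3.

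The 5 members called higher rose by modest amounts. MRPL15, whose bacterial counterpart is a large-subunit protein, had 58.1, 62.2 and 61.5 CPM with siNC and 79.5, 78.3 and 73.3 CPM with siZEB1. Every siZEB1 library stood above every siNC library, and MRPL15 rose by 0.35 on the log2 scale (SE 0.07, adjusted p = 0.00053, edgeR). MRPS35, a small-subunit gene without a bacterial counterpart and the highest member per kilobase of all its annotated exons, had 220.8, 208.6 and 217.2 CPM with siNC and 245.3, 253.8 and 253.7 CPM with siZEB1 (log2 fold change 0.22, SE 0.06, adjusted p = 0.00425, edgeR). Its groups were also separate.

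MRPL22, MRPL36 and MRPS34 rested on smaller margins. MRPL22, whose bacterial counterpart lines the peptide tunnel, had 62.2, 55.9 and 64.2 CPM with siNC and 73.4, 74.1 and 65.4 CPM with siZEB1 (log2 fold change 0.22, SE 0.08, adjusted p = 0.0244, edgeR). MRPL36 had 48.6, 54.9 and 57.4 CPM with siNC and 65.3, 64.5 and 58.5 CPM with siZEB1 (log2 fold change 0.23, SE 0.08, adjusted p = 0.0262, edgeR). In both genes the lowest siZEB1 library, replicate 3, stood only just above the highest siNC library, also replicate 3. MRPS34 had 40.0, 45.3 and 47.4 CPM with siNC and 54.8, 57.3 and 44.7 CPM with siZEB1 (log2 fold change 0.24, SE 0.09, adjusted p = 0.0463, edgeR), so that its groups overlapped. The count of members called higher ranged from 2 to 8 when 1 library was left out, being 8 without siNC replicate 3 and 2 without siNC replicate 2, siZEB1 replicate 1 or siZEB1 replicate 2, and of the 5 genes only MRPL15 and MRPS35 kept their call in all 6 fits. MRPL22 lost its call without siNC replicate 2 or siZEB1 replicate 1 or 2, and MRPL36 and MRPS34 also without siNC replicate 1. MRPL41, MRPL45 and MRPL52 were called higher only without siNC replicate 3, MRPL45 also without siZEB1 replicate 3.

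The 52 members that were not called included many of the best measured ones. In 46 of them the siNC mean was 11.2 to 189.8 CPM, the standard error of the log2 fold change was 0.06 to 0.11, and the log2 fold changes ran from -0.16 to 0.18. MRPS12, whose bacterial counterpart stands at the decoding centre, had 107.2 ± 6.39 CPM with siNC and 95.9 ± 8.89 CPM with siZEB1 (SD, n = 3). MRPL45, which anchors the ribosome at the inner membrane, had 102.2 ± 3.16 and 113.8 ± 9.09 CPM, with an adjusted p of 0.0811 in edgeR's quasi-likelihood test and separate groups. MRPL58, a peptidyl-tRNA hydrolase built into the large subunit, had 40.2 ± 0.389 and 40.9 ± 2.54 CPM. MRPL44, related to ribonuclease III, had 56.6 ± 1.09 and 60.6 ± 3.05 CPM. MRPS36, the member that is not a ribosomal protein, had 14.9 ± 1.59 and 15.0 ± 1.81 CPM.

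A few members stood near the floor of the measurement. MRPL2 had 3, 8 and 6 counts with siNC and 6, 2 and 8 counts with siZEB1. MRPS24 had 10, 6 and 14 counts with siNC and 10, 5 and 4 counts with siZEB1. Neither passed the filter, and no difference was detectable at this depth. Another 6 tested members averaged under 10 CPM with siNC, 1.75 to 6.94 CPM, and had standard errors of 0.14 to 0.27 on the log2 scale. None of these 6 was called by edgeR's quasi-likelihood test, at an unadjusted p under 0.05 or by DESeq2. MRPL12, part of the stalk of the large subunit, was among them, with 2.26, 3.80 and 3.11 CPM with siNC and 3.44, 2.55 and 2.56 CPM with siZEB1. Of its exonic bases 68.2% are shared with AC139530.2 on the same strand, and 23.2% of those of MRPS24 with the read-through gene URGCP-MRPS24. The other tested members under 10 CPM also share exonic bases with other genes, among them MRPS17 with 27.0% on the same strand and MRPS18C with 40.2% on the other strand. MRPL2 shares 14.7% of its exonic bases with KLC4 on the other strand. Reads from bases shared on the same strand cannot be assigned to 1 gene, and the strand setting is not given. The levels of MRPL2, MRPL12, MRPS24 and the other members under 10 CPM in these files are therefore uncertain.

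Per kilobase of exon, the siNC level of the tested members ran from 0.479 to 109 CPM per kb with a median of 21.6 CPM per kb. The highest were MRPS35 (109 ± 3.16 CPM per kb), MRPL51 (103 ± 3.75), MRPL37 (74.5 ± 5.65), MRPL18 (70.3 ± 1.57) and MRPL14 (68.8 ± 5.36; SD, n = 3). MRPS35 and MRPL51 stood apart from the rest, while the levels of MRPL37, MRPL18 and MRPL14 did not differ beyond their spread. This order rests on all annotated exonic bases of a gene. Per kilobase of 1 reference transcript the highest were MRPL20 (144.7 CPM per kb), MRPL51 (129.6), MRPL37 (128.0), MRPS6 (117.4) and MRPS35 (114.2). MRPL51 shares 31.3% of its exonic bases with NCAPD2 on the other strand. Of the 5 highest by all annotated exonic bases, MRPS35 was called, and MRPL51, MRPL37, MRPL18 and MRPL14 were not, with log2 fold changes of 0.03, -0.07, 0.10 and -0.02. In the order by reference transcript, MRPL20 was called lower, as given above, and MRPS6 was not called (log2 fold change 0.06, SE 0.07). The 7 members lower by over 1.5-fold spread from 4.73 CPM per kb for MRPL42 to 57.4 CPM per kb for MRPS26 with siNC.

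**Figure D3:**
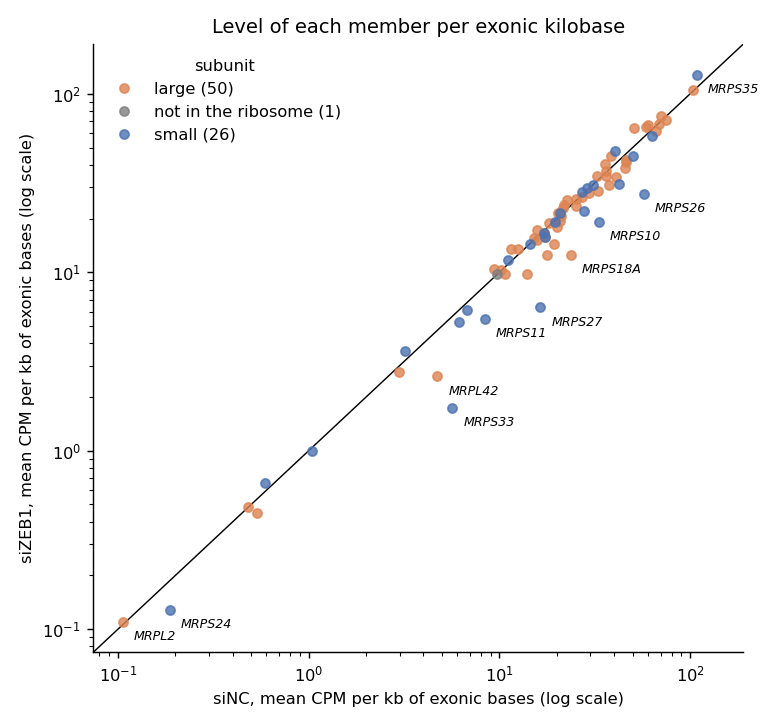
Mean level in siZEB1 (y axis) against siNC (x axis), in CPM per kilobase of exonic bases on log scales, for all 77 members, coloured by subunit. The line marks equal levels; the 7 members lower by over 1.5-fold lie below it, and MRPL2 and MRPS24, which did not pass the filter, lie at the lower left.

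Summed over the members, the level per library shifted little. The sum was 4964, 4974 and 5233 CPM with siNC and 4813, 4933 and 4493 CPM with siZEB1, a difference of -6.14% between the means, or -0.09 on the log2 scale. All siZEB1 sums lay below all siNC sums, with siZEB1 replicate 3 the lowest. Without siZEB1 replicate 3 the log2 difference was -0.05, the end of the range nearest 0 when 1 library was left out, and the far end was -0.12. The large-subunit members summed to 3196, 3208 and 3413 CPM with siNC and 3208, 3292 and 2977 CPM with siZEB1, and the groups overlapped. The small-subunit members summed to 1752, 1752 and 1804 CPM with siNC and 1590, 1625 and 1502 CPM with siZEB1, a difference of -11.2%, and the groups were separate. The small subunit's share of both sums was 35.1 ± 0.454% with siNC and 33.2 ± 0.263% with siZEB1 (SD, n = 3). The 5 small-subunit members lower by over 1.5-fold enter this sum and this share. The small-subunit sum without them was not computed, so a shift of the whole subunit cannot be read from it. Without the 7 members lower by over 1.5-fold, the sum over all members was 4630 ± 144 CPM with siNC and 4535 ± 221 CPM with siZEB1, a difference of -2.06% that is smaller than the spread between libraries. A sum of CPM gives long transcripts more weight and does not count molecules, and no p was computed for it since the 7 genes enter it.

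**Figure D4:**
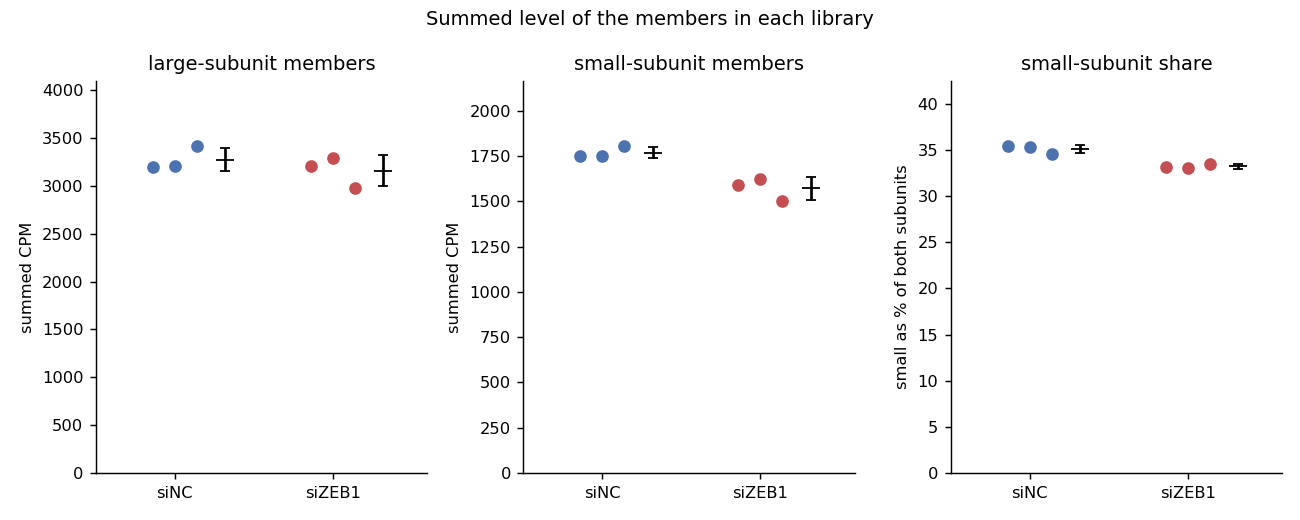
Summed CPM of the large-subunit members, of the small-subunit members, and the small subunit's share of both in percent (y axes, from 0) in each siNC and siZEB1 library, with the mean ± SD in black. The large-subunit sums overlap between the groups, whereas the small-subunit sums (1752 to 1804 CPM against 1502 to 1625 CPM) and shares do not. The small-subunit sums include the 5 small-subunit members lower by over 1.5-fold.

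The promoters were examined because ZEB1 binds the E-box CACCTG. RefSeq promoters (GRCh38.p14), 250 bases before to 50 bases after the start of the gene, were found for 68 of the 77 members. The E-box, on either strand, was present in 13 of 68 members (19.1%) and in 18.6% of the 10428 tested genes with a promoter. Among called members it was present in MRPS18A, MRPS30 and MRPL22, of which the first and second fell and the third rose. Motifs of other factors were counted in the same promoters. The ETS motif CCGGAAG was present in 41.2% of members and 19.1% of tested genes, the YY1 motif AAGATGG in 33.8% and 7.56%, and the NRF1 half-site CATGCGC in 10.3% and 7.55%, on either strand and with no overlap of ETS and YY1 matches in any member. ETS factors of the GABP type, YY1 and NRF1 are known regulators of nuclear genes for mitochondrial proteins. The ETS motif was present in 7 of 17 members called lower and 1 of 4 called higher, and the YY1 motif in 8 of 17 and 2 of 4. A match of letters is not evidence that a factor binds.

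Stretches of the MRPS18A and MRPL22 promoters are shown, as the members called lower and higher whose E-box lies upstream of the start, with the motifs in capitals and each sequence 5′ to 3′ along the gene's strand (GRCh38.p14).
MRPS18A, E-box at position -121 from the start, chr6:43687895-43687924, minus strand: tcccaaagcggaCAGGTGagagaaatgatg
MRPS18A, ETS and YY1 motifs around the start, chr6:43687771-43687832, minus strand: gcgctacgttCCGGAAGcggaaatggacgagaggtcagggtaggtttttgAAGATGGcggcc
MRPL22, E-box at position -196 from the start, chr5:154940865-154940894, plus strand: tttttctgaatcCAGGTGaattttcggaag
MRPL22, E-box at position -79 from the start, chr5:154940982-154941011, plus strand: tcttcgtgacggCACCTGgggtgtaagtac

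Many members share a start region with a neighbour read in the opposite direction. Such a protein-coding neighbour began within 1000 bases of 17 members. Of the 16 neighbours tested 4 were called higher and 3 lower, close to the shares of all genes tested (19.0% and 21.2%). The neighbours included the members MRPL46 and MRPS11, and MRPS11 was among the 3 called lower. MRPS11 and MRPL46, both members, start 34 bases apart. MRPS11 fell, as given above, and MRPL46 had 2.35, 4.11 and 3.84 CPM with siNC and 3.28, 2.50 and 2.82 CPM with siZEB1. At this low level MRPL46 was not called (log2 fold change -0.26, SE 0.21, adjusted p = 0.358, edgeR). MRPL36 and NDUFS6, a complex I subunit, start 34 bases apart, and NDUFS6 was not called (log2 fold change 0.17, SE 0.08, adjusted p = 0.0943, edgeR). The table also listed 24 pseudogenes named after members, and their counts summed to 87 to 131 per library.

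Other parts of mitochondrial translation were compared with the ribosomal proteins by counts, each list having been chosen with earlier results known. The 5 mitoribosomal proteins with other symbols are DAP3, PTCD3, CHCHD1, AURKAIP1 and GADD45GIP1. None of the 5 was called by edgeR's quasi-likelihood test or DESeq2, 1 had an unadjusted p under 0.05 (AURKAIP1), and their median log2 fold change was -0.01. Of the ribosomal RNAs of the mitochondrial genome, MT-RNR1 stood at 1651 ± 63.0 CPM with siNC and 1648 ± 14.5 CPM with siZEB1, and MT-RNR2 rose from 13301 ± 287 to 15744 ± 156 CPM (SD, n = 3), by 0.24 on the log2 scale (SE 0.04, adjusted p = 9.1e-05, edgeR).

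Of 26 factors that assemble the mitochondrial ribosome, 9 fell (34.6%) and 3 rose (11.5%), against 21.2% and 19.0% of all genes tested, the median difference over the list being -0.05 on the log2 scale. NOA1, a GTPase needed for the small subunit, fell by 1.03 (SE 0.09) on the log2 scale and RBFA, a ribosome-binding factor of the small subunit, fell by 0.75 (SE 0.17). RCC1L, a partner of assembly GTPases, rose by 0.64 (SE 0.08). Of 15 tested genes on a list of translation factors, 3 were called lower (20.0%: MTIF2, MTRF1L and OXA1L) and 1 higher (6.67%: GFM2). OXA1L was on this list although it is not itself a translation factor. MTIF2, the initiation factor that places the first tRNA, fell by 0.32 (SE 0.07), and GFM2, which recycles ribosomes, rose by 0.25 (SE 0.09). Of 12 genes of mitochondrial DNA transcription and replication, 4 were called lower (33.3%) and 3 higher. Among them TEFM, the transcription elongation factor, fell by 0.70 (SE 0.12), the exonuclease gene MGME1 fell by 0.62 (SE 0.08), and the gene of the protease LONP1 rose by 0.55 (SE 0.07).

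Of 9 tested nuclear regulators of mitochondrial biogenesis, 3 were called lower (33.3%) and 1 higher (11.1%). PPARGC1B, a coactivator of mitochondrial genes, fell by 0.86 (SE 0.10) on the log2 scale, and MYC, which drives ribosome production, fell by 0.64 (SE 0.05). GABPA, the DNA-binding subunit of GABP, rose by 0.60 (SE 0.07), whereas GABPB1, its partner subunit, fell by 0.23 (SE 0.08). MYC had 518.6 ± 9.29 CPM with siNC and 332.4 ± 10.9 CPM with siZEB1 (SD, n = 3). The part of these regulators in the members' differences was not tested.

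Cytosolic ribosomal proteins and nuclear respiratory chain subunits served for comparison. Of 79 cytosolic ribosomal protein genes, 7 were called higher (8.86%) and 5 lower (6.33%), 1 of them by over 1.5-fold, and the median difference was 0.07 on the log2 scale. Of 72 tested respiratory chain genes, 10 were called higher (13.9%) and 9 lower (12.5%), 3 of them by over 1.5-fold, with a median of 0.06. Among the 75 mitochondrial ribosomal protein genes the shares called lower and lower by over 1.5-fold were 24.0% and 9.33%. The difference between these lists was not tested.

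**Figure D5:**
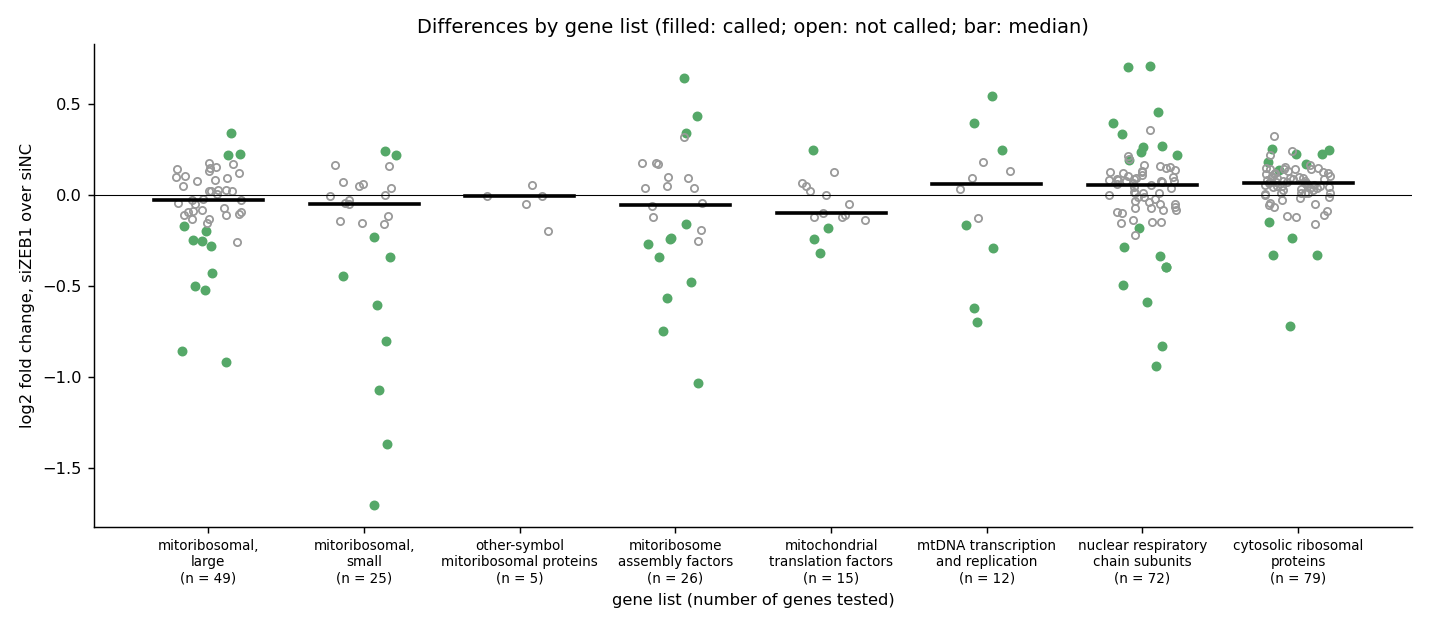
Log2 fold change of siZEB1 over siNC (y axis) for each tested gene of the 2 mitoribosomal subunits and of 6 other gene lists (x axis). Filled points passed an adjusted p of 0.05 and black bars mark medians. The medians lie between -0.10 for the list of translation factors and 0.07 for the cytosolic ribosomal proteins. MRPS33, MRPS27 and MRPS26 are the lowest points of the small subunit.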

How the data were processed

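RNA-seq of 6 SW480 libraries (3 siNC, 3 siZEB1) was analysed from raw counts per gene as deposited by the authors, 1 table per library. Per the submitters' processing notes the reads passed through Trimmomatic, HISAT2, SAMtools and featureCounts on hg38, with no versions, and the gene annotation and strand setting are not given in the sources used here. Counts of genes that overlap on either strand are therefore uncertain. Gene positions, exons and 3′UTRs were taken from GENCODE 29 (GRCh38), which held 31059 of the 32029 gene identifiers, and promoters from RefSeq (GRCh38.p14).

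The whole table was fitted with edgeR 4.0.16 in R 4.3.3: filterByExpr, TMM size factors, the two-sided quasi-likelihood test, and Benjamini-Hochberg adjustment over all 14996 genes kept. A gene was called at an adjusted p under 0.05, and a fold change over 1.5 was a second limit, as the fold limit of the study. CPM use TMM-scaled library sizes, and SD are over 3 libraries. Library depth was 19040636 to 22357633 counts and the biological coefficient of variation was 6.58%. The fit was tested on simulated data. Alternatives were median-of-ratios and total-count scaling, DESeq2 1.42.0, 2 other filters, the replicate number as a block, and each library left out. P-values set the difference between the groups against the spread between these libraries of a single cell line, with that spread moderated over all genes.

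The members and gene lists were chosen with earlier results of these data known. Members named are those with the largest called rises and falls in each subunit (up to 8 each), the 5 highest per kilobase, those below the filter, and 10 chosen for their roles, as well as up to 3 called genes of each other list with the largest difference. MRPL41, MRPL46, MRPL49, MRPL50, MRPL52, MRPS6, MRPS17, OXA1L, GABPB1 and the markers EPCAM, KRT19, VIL1, CDX2, CDH17, CD68 and COL1A1 were named after their values were seen, as were NDUFS6 and the genes whose exons overlap those of a member.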

Additional observations from a re-analysis of the deposited data

How the results depend on the processing

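The 7 members lower by over 1.5-fold stayed 7 under each scaling, filter and test and under the replicate block, and ranged from 6 to 8 when 1 library was left out. Members called lower numbered 18, 17 with no filter on low counts (without MRPS30), and 14 to 17 with 1 library left out. Members called higher numbered 5, 4 with scaling by total counts (without MRPS34), and 2 to 8 with 1 library left out. In fits that left out 1 library, 16 members reversed sign in at least 1 fit, each with a log2 fold change within 0.159 of 0 in the full fit, and the lowest adjusted p of a reversed value was 0.442 (edgeR). Among the members named here, the log2 fold changes over the 6 fits ran from -0.285 to 0.0904 for MRPL12, from -0.0668 to 0.0532 for MRPL14, from -0.0801 to 0.00231 for MRPL50, from -0.0203 to 0.0851 for MRPL51, from -0.0253 to 0.0633 for MRPL58, from -0.0314 to 0.258 for MRPS18C and from -0.0747 to 0.107 for MRPS36. The members' median log2 fold change lay between -0.06 and -0.01 over all alternatives.

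Libraries of the 2 groups share replicate numbers. The correlations of same-numbered deviations were -0.05, -0.09 and -0.20, against -0.07 to 0.14 between differently numbered libraries. These deviations are from means of 3 libraries, so the correlations cannot settle whether the numbers mark pairs. With the number as a replicate block, 14 members were called lower and 2 higher, 16 of the 23 calls being kept, while calls over all genes went from 6035 to 4968. At this depth, members under 10 CPM gave standard errors of 0.14 or more.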
